A study of Mus musculus with 3 samples.

Results

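The genes described here were 9 genes of hepatic glucose metabolism, namely Pck1, G6pc, Fbp1, Pcx, Gckr, Pklr, Slc2a2, Pdk4 and Gys2, taken from the 22367 protein-coding genes that GENCODE lists on the mouse NCBI37/mm9 genome. They were listed by name for their function, with earlier results of these data known, and each was found in the annotation as a single gene. For each gene, the binding of the retinoid x receptor RXRα and of the retinoic acid receptor RARα was read within 10 kb of the gene start, which is the annotated 5′ end, and over the annotated gene. The data came from livers of male wild type C57BL/6 mice that the labels give an age of 3 months, with no treatment named. Each of the 3 libraries was made from liver chromatin, 1 after precipitation with an antibody to RXRα, 1 after precipitation with an antibody to RARα and 1 without precipitation (input). No library was replicated and no test was made, so every value describes these libraries without an estimate of the variation between mice. The chromatin was of bulk liver, in which binding in more cells and stronger binding per cell cannot be told apart.

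RXRα and RARα are nuclear receptors that bind DNA as dimers, RARα with an RXR as its partner, and RXRα also with itself and with other receptors such as PPARα, LXR, FXR and PXR. Nuclear receptors recognize copies of a hexamer close to AGGTCA, and the number of bases between both copies sets which dimer fits best. Liver makes glucose during fasting through pyruvate carboxylase, PEPCK, fructose bisphosphatase and glucose 6-phosphatase, and takes up, breaks down or stores glucose after feeding through GLUT2, pyruvate kinase and glycogen synthase. Several of these genes are textbook targets of glucagon, glucocorticoid and retinoid signals.

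RXRα and input were given as the number of extended reads over each bin of 32 bp, with 9999939 reads for RXRα and 9999292 for input in all. An RXRα region was a run of bins in which RXRα reached 20 times the input, taken as the local or the mean input per bin, whichever was larger. Unless stated otherwise, the read counts given for a region are those of its bin with the highest ratio, called its strongest bin. That bin need not hold the most RXRα reads. A filtered RARα peak was a deposited peak with a score greater than 20, on a scale that ran from 5 to 382 with a median of 12. A RARα peak and an RXRα region were called co-localized where they shared 25% or more of the shorter of both intervals. Intervals given beside ratios of reads are 95% exact intervals and cover counting error only. The read totals are those of the deposited tracks, and the RXRα total lies below the mapped reads that the methods state. Whether the tracks were thinned or normalized is not given in the sources used here, so the intervals hold for the deposited signal. The depth of the RARα library cannot be read from its peak list. The methods set the background against input signals, without naming the control library of the RARα peaks.

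To show DNA under some of the strongest RXRα signals and under weaker regions with hexamer pairs, 7 stretches were read from the NCBI37/mm9 genome. Regions at Slc2a2 (ratios of 111 and 110) and Gys2 (110) are not printed, although their ratios exceeded those of the Gckr and Pcx stretches. They held no pair of the kind marked here. The stretches were partly chosen for their pairs, so they do not show how often pairs occurred. Each stretch is printed 5′ to 3′ on the strand named. Capitals mark pairs of hexamers in the same direction and 1 base apart (a DR1). The marked pairs differ from a perfect AGGTCA pair at 2 positions or fewer. Pairs at other spacings are not marked. Stretches at a gene start end at the base before the start. Pairs were searched only within 100 bp of the strongest bin of each region, so bases beyond that were not searched.
Pck1 promoter, chr2:172978081-172978368, plus strand: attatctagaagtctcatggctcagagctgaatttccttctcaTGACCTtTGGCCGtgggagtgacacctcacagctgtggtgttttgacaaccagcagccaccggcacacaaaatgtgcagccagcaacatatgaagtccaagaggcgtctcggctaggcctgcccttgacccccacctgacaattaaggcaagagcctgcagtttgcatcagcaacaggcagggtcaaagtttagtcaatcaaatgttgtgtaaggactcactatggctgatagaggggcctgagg
G6pc promoter, chr11:101228641-101228874, plus strand: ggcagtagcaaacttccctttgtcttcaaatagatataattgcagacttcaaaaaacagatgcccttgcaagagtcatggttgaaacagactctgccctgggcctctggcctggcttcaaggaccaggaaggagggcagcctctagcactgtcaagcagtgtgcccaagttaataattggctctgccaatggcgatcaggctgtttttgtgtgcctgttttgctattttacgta
G6pc upstream region, chr11:101225857-101226016, plus strand: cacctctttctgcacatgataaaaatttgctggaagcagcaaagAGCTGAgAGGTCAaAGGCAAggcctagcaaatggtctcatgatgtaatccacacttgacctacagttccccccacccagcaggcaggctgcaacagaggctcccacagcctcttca
Gckr promoter, chr5:31599553-31599712, plus strand: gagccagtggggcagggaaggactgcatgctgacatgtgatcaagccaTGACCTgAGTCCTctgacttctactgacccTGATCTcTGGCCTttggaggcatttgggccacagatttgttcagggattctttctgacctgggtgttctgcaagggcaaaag
Pdk4 promoter, chr6:5446310-5446609, minus strand: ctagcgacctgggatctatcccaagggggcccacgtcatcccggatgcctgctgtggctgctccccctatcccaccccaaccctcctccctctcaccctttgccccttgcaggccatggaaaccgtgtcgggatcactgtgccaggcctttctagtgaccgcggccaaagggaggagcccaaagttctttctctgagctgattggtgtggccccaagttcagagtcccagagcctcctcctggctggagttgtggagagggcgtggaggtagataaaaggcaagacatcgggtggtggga
Pdk4 intron, chr6:5436737-5436896, minus strand: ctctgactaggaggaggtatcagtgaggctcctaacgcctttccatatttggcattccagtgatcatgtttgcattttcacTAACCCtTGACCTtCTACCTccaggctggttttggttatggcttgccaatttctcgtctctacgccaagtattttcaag
Pcx internal start, chr19:4594241-4594318, plus strand: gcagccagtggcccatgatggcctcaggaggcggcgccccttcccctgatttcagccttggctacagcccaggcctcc
The G6pc upstream region and the Pdk4 intron each held overlapping pairs that share 1 hexamer, and the Gckr promoter held a pair at each of 2 places.

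RXRα bound near every gene of the group. All 9 genes had an RXRα region within 10 kb of their start, compared to 39.8% of all protein-coding genes. A filtered RARα peak lay within 10 kb of 8 of the 9 genes, with Pdk4 as the exception, compared to 52.2% of all genes. A RARα peak co-localized with an RXRα region at the same 8 genes, compared to 23.5% of all genes. Within 1 kb of the start, 8 genes had a filtered RARα peak (40.9% of all genes), 8 had an RXRα region (21.6%) and 6 had both co-localized (15.8%). Over the annotated gene, 7 had a filtered RARα peak (42.5% of all genes), 9 had an RXRα region (33.9%) and 7 had both co-localized (17.7%).

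The number and strength of the sites differed widely among the genes. The 10 kb windows together held 31 filtered RARα peaks and 37 RXRα regions, and 13 of these peaks belonged to Pck1 alone. Of the 31 peaks, 16 (51.6%) co-localized with an RXRα region, compared to 33.1% of all filtered RARα peaks within 10 kb of a gene start. Of the 37 regions, 11 did not overlap any RARα peak, whatever its score, and the same share over all RXRα regions was not computed. The median gene of the group had 5 RXRα regions, and Pck1, G6pc, Fbp1, Pcx and Slc2a2 each had 5 or more, as did 3.51% of all genes. A RARα score above 100 was found at Pck1, Pcx and Pklr, and at 4.86% of all genes.

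The strongest RXRα bin within 10 kb had a median ratio of 99.6 over input across the 9 genes, with a range from 31.5 to 150.0, compared to a median of 14.9 over all genes. Pck1, Pdk4 and G6pc had the highest ratios, at percentiles of 98.7, 98.5 and 98.3 among all genes, while Pcx and Gys2 had the lowest, at percentiles of 75.0 and 72.3. This order was not fixed: over means of 5 bins G6pc fell from 137 to 62.0, below Pklr and Slc2a2, and against the mean input alone Gys2 rose to 126, above Gckr and Pklr. Input itself was not even across these genes. Within 10 kb it ranged from 106 reads at Pdk4 to 339 at Pck1, compared to 80.8 for the median gene and 75.3 for the genome average over the same length. The strongest bin had 1 input read at Pck1 and G6pc and 0 at the other 7 genes, whose ratios are therefore to the mean input and do not correct for the input of the window. The part of input in the RARα peaks was not tested.

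**Figure D1:**
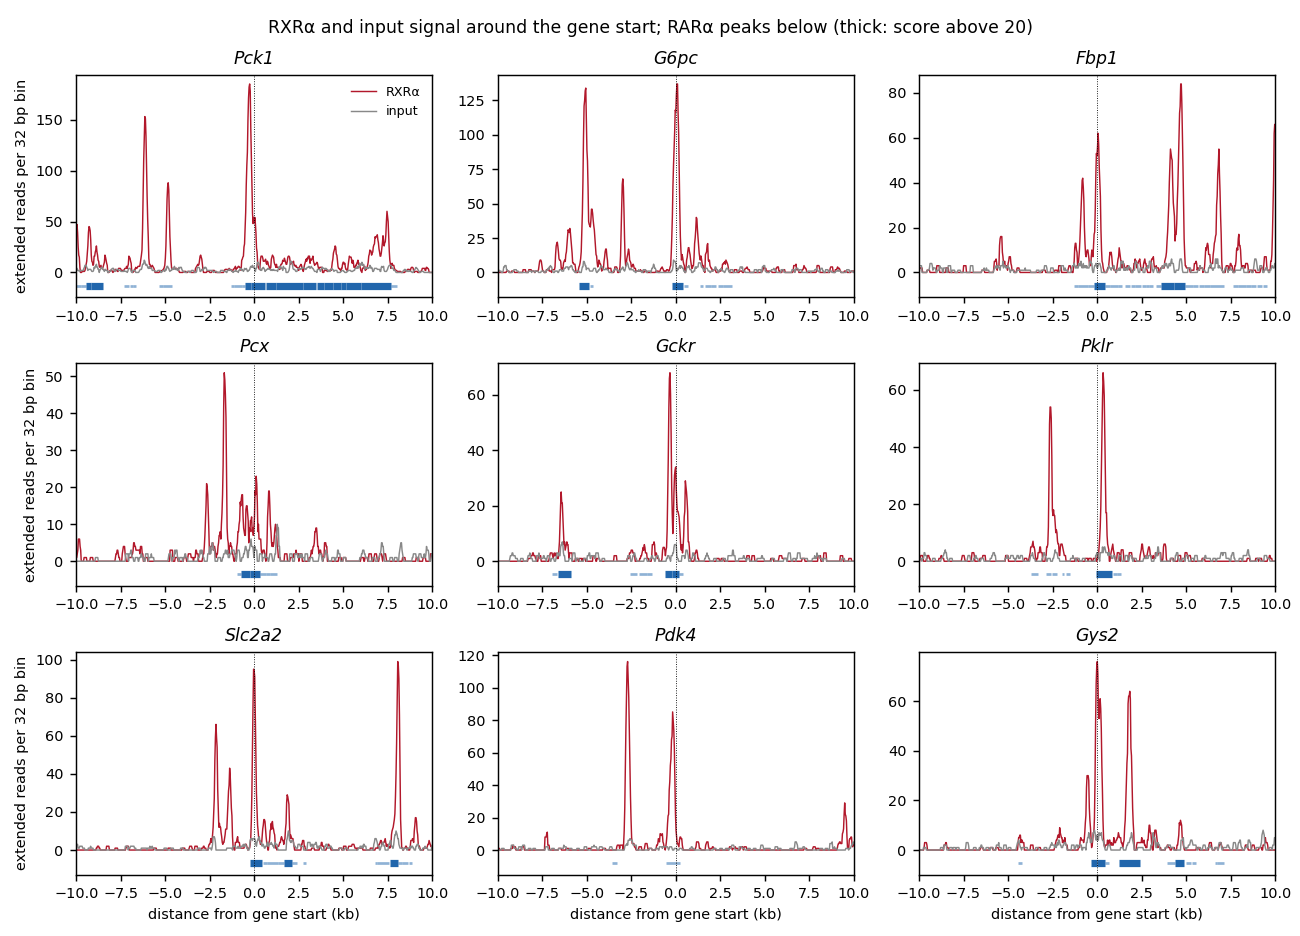
Number of extended reads per 32 bp bin (y axis) in the RXRα library (red) and the input library (grey) against the distance from the gene start in kb (x axis), in 1 panel per gene, drawn in the direction of transcription and with its own y scale. Blue bars below mark RARα peaks, thick where the score was above 20; 13 such peaks lie around Pck1 and none at Pdk4.

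Among the gluconeogenic genes, Pck1 encodes the cytosolic PEP carboxykinase, which commits oxaloacetate to gluconeogenesis, and lies at chr2:172978549-172984774 on the plus strand. It had 13 filtered RARα peaks, 7 RXRα regions and 5 co-localized RARα peaks within 10 kb. Its strongest RXRα bin lay 356 bp upstream of the start, in the promoter stretch printed above, with 150 RXRα reads over 1 input read. Within the same region, RXRα reads were highest 260 bp upstream, at 185 over 3 input reads. The RARα peak over that region, with its summit 259 bp upstream, had a score of 40, and RXRα was enriched 45.8 times over input across it. The pair of hexamers in this stretch, at chr2:172978124-172978136 on the minus strand and 419 bp upstream of the start, read CGGCCAaAGGTCA. The proximal Pck1 promoter is known to hold a retinoic acid response element, and whether this match is that element was not tested.

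Across the gene itself, Pck1 stood apart from the other genes of the group. Its highest RARα score, 157, was at a summit 16 bp downstream of the start, in the 5′ untranslated exon. From there, 8 further filtered peaks followed one another through exons and introns with scores from 76 to 132, and a peak with a score of 125 lay just past the end of the gene. With the weaker peaks at its edges, this run of 15 abutting RARα peaks was 9310 bp long and covered the whole gene, from 1318 bp upstream of the start to 1766 bp past the end. Filtered peaks alone covered 98.7% of Pck1, compared to at most 13.6% of the other 8 genes.

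RXRα over the same body had 3 regions, with 352 RXRα reads against 129 input reads. This was an enrichment of 2.72 (95% interval 2.22 to 3.36), at a percentile of 91.1 among all genes, compared to 98.6 for the enrichment within 1 kb of the start. Only 26 of all genes had filtered RARα peaks over as large a share of their length or larger, Pck1 included, and 4 of these were as long as Pck1 or longer. Among the hepatocyte markers Alb, Ttr, Apoa1, Tat and Cps1, the share covered was 95.1% at Alb, 98.6% at Apoa1, 98.1% at Tat, 93.2% at Cps1 and 34.6% at Ttr. Input over the body of Pck1 was 5.51 times the genome average, at a percentile of 99.8 among all genes, and its part in the RARα run was not tested.

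G6pc encodes the catalytic subunit of glucose 6-phosphatase, which releases free glucose from the hepatocyte, and lies at chr11:101228875-101239217 on the plus strand. It had many RXRα sites and weak RARα peaks. There were 5 RXRα regions within 10 kb, and the strongest bin, 70 bp downstream of the start in the untranslated part of the first exon, had 137 RXRα reads over 1 input read. The RARα peak there had a score of 31, which was the highest at this gene. The other co-localized site lay 5018 bp upstream, with 110 RXRα reads over 2 input reads and a RARα score of 24. The remaining 3 regions overlapped no RARα peak, among them the upstream region printed above, 2938 bp from the start, with 62 RXRα reads over 2 input reads. In that region, the hexamer AGGTCA stood between 2 imperfect copies at a spacing of 1 base. No pair of this kind was found within 100 bp of the strongest bin at the G6pc start. That window covers only the end of the G6pc promoter stretch, so the rest of the stretch was not searched.

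Fbp1 encodes the fructose 1,6-bisphosphatase of liver and lies at chr13:62966113-62989642 on the minus strand. Its RARα and RXRα maxima were at different places. The highest RARα score, 99, was at a summit 157 bp downstream of the start, where the strongest bin of the RXRα region had 56 reads over 2 input reads. The strongest RXRα bin was in an intron, 4825 bp downstream. It had 47 reads over 0 input reads, a ratio of 78.0 to the mean input. The RARα peak over this region had a score of 41. RXRα in this region rose to 84 reads over 6 input reads, 4729 bp downstream, compared to 62 over 3 in the region at the start. A further 5 regions lay deeper in the gene, from 6201 to 16281 bp, and overlapped RARα peaks with scores of 20 or less. Weak RARα peaks ran through most of Fbp1, so that peaks of any score covered 81.1% of the gene and filtered peaks 9.29%. The start of the predicted gene Gm17367 lies 820 bp inside Fbp1 on the plus strand, so intronic sites within 10 kb were nearer to Gm17367 than to Fbp1.

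Pcx encodes pyruvate carboxylase, the mitochondrial enzyme that makes oxaloacetate from pyruvate, and lies at chr19:4510472-4621752 on the plus strand. At the annotated start the RARα signal was high and the RXRα signal modest. The RARα peak there had a score of 128, while the RXRα region under it had 16 reads over 0 input reads, a ratio of 26.5 to the mean input. Enrichment of RXRα within 1 kb of the start was 4.91 (95% interval 3.15 to 7.83). A transcript of Pcx with an internal start, 83847 bp downstream, showed the reverse. There RXRα had 103 reads over 1 input read, with an enrichment of 9.10 within 1 kb, and the highest RARα score within 1 kb was 16, below the filter. The stretch upstream of this internal start is printed above and had a GC content of 67.9%. The body of Pcx held 19 RXRα regions and 8 filtered RARα peaks, of which 5 co-localized. Strong intronic regions lay 26345 bp (58 reads over 0 input reads), 47465 bp (81 over 1) and 78217 bp (78 over 1) from the start, and the RARα scores over them were 20, 20 and 34.

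**Figure D2:**
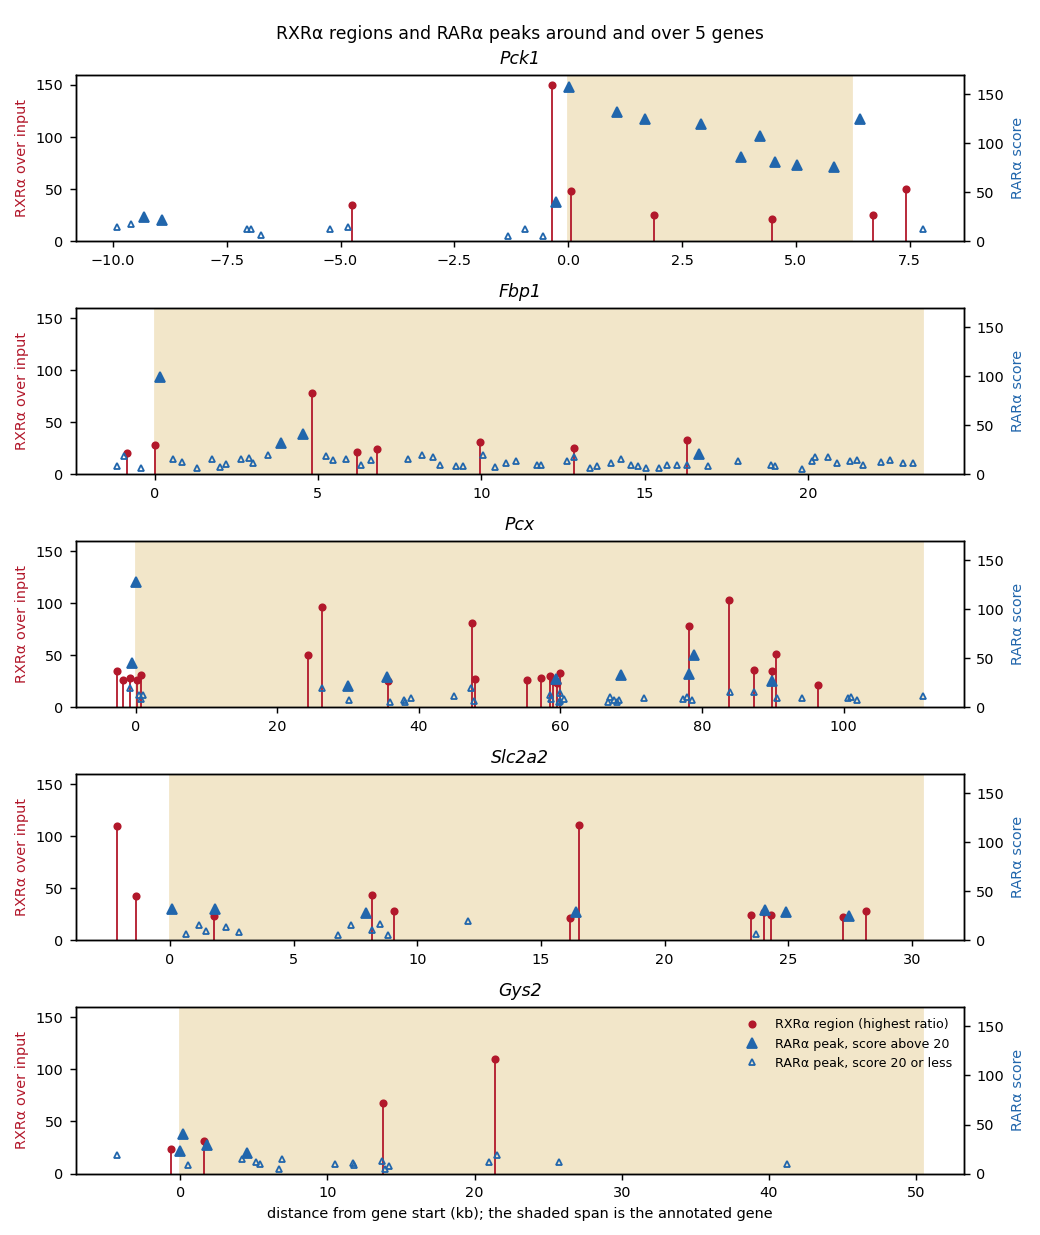
Highest RXRα over input of each RXRα region (red, left axis, a ratio) and score of each RARα peak (blue triangles, right axis, filled above 20) against the distance from the gene start in kb for Pck1, Fbp1, Pcx, Slc2a2 and Gys2, with the annotated gene shaded. RARα peaks with scores from 76 to 157 run through all of Pck1, while in the other 4 genes the highest score is near the start and the RXRα regions reach far into the gene.

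Among the genes of glucose uptake, use and storage, Gckr encodes a regulatory protein of hepatic glucose phosphorylation and lies at chr5:31599954-31629673 on the plus strand. Binding was gathered at its promoter. The strongest RXRα bin lay 289 bp upstream, with 60 reads over 0 input reads, and a second region lay 159 bp downstream with 17 reads over 0. Both regions co-localized with RARα peaks, whose scores were 21 and 26. The RARα peak with the highest score in the window, 73, was 6239 bp upstream and nearest to the start of Ift172, and without peaks nearer to another gene the highest score of Gckr was 26. The start of Fndc4 lies closer still, 1704 bp upstream, and had no filtered RARα peak nearest to it in this window. Beyond the first 1 kb, the gene had no RXRα region and an enrichment of 0.626, compared to 9.71 (95% interval 6.16 to 16.8) within 1 kb of the start. Both DR1-like pairs of the Gckr promoter lay on the minus strand within 60 bp of the strongest bin, at 347 and 317 bp upstream of the start.

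Pklr encodes the pyruvate kinase of liver and red cells and lies at chr3:88940064-88950706 on the plus strand. It had 1 strong RARα peak, with a score of 125 and a summit 501 bp downstream of the start, near the first bases of its other annotated transcripts, which begin 430 and 437 bp downstream. The RXRα region in this peak had 66 reads over 3 input reads, a ratio of 22.0. The strongest ratio was instead 2607 bp upstream, with 54 reads over 0 input reads, where the RARα peaks scored 10 and 18. At a threshold of 30 times input, this upstream region was the one that remained, and Pklr was no longer counted as co-localized.

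Slc2a2 encodes GLUT2, the glucose transporter of the hepatocyte membrane, and lies at chr3:28596825-28627278 on the plus strand. RXRα regions outnumbered co-localized RARα peaks. The strongest bin within 10 kb lay 2152 bp upstream with 66 reads over 0 input reads, next to another region 1384 bp upstream with 43 over 1, and neither overlapped a RARα peak. The gene start had a RARα peak with a score of 32 and a clear rise in RXRα to 95 reads, but the input there was 6 reads and the highest ratio 17.0, just under the threshold. Slc2a2 was thus the only gene of the 9 with no RXRα region within 1 kb. A strong region in an intron 16536 bp downstream had 111 reads over 1 input read and a RARα score of 29. The body held 10 RXRα regions and 7 filtered RARα peaks, with scores from 25 to 32.

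Gys2 encodes the glycogen synthase of liver and lies at chr6:142371133-142421629 on the minus strand. Its filtered RARα peaks were near the start, while the called RXRα regions with the highest ratios lay far inside. The highest RARα score was 40, at 174 bp downstream, and RXRα at the start rose to 76 reads, but with 4 input reads the highest ratio stayed just under the threshold and no region was called over that peak. Within 10 kb the strongest bin was 1612 bp downstream, with 19 reads over 0 input reads. Further in, regions at 13772 bp (41 reads over 0) and 21356 bp (66 reads over 0) had RARα scores of 13 and 19, below the filter. Their ratios of 68.0 and 110 were to the mean input. Against the mean input the start had a higher ratio, 126, so this contrast depended on the input used.

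Pdk4 encodes a pyruvate dehydrogenase kinase that spares pyruvate from oxidation during fasting, and lies at chr6:5433351-5446309 on the minus strand. It was the gene of the group with an RXRα region and no filtered RARα peak, a combination found at 7.19% of all genes whatever the RXRα ratio. The strongest bin lay 172 bp upstream of the start with 85 reads over 0 input reads, in the promoter stretch printed above, and a second upstream region at 2700 bp had 116 reads over 3. The RARα list did hold a peak at the promoter, with its summit 136 bp upstream, a false discovery rate of 0.02% and a score of exactly 20. RXRα was enriched 31.3 times over input across it, and it overlapped the RXRα region. Scores of 20 or more in place of scores greater than 20 were tried after the data were seen. All 9 genes then had a RARα peak and all 9 a co-localized one. How many of all genes had them at this cutoff was not computed. Of the 344 genes with an RXRα ratio as high as that of Pdk4 or higher, Pdk4 included, 50 (14.5%) had no filtered RARα peak. The intronic region printed above lay 9492 bp downstream with 29 reads over 0, overlapped no RARα peak, and held 2 DR1-like pairs within 15 bp of its strongest bin.

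**Figure D3:**
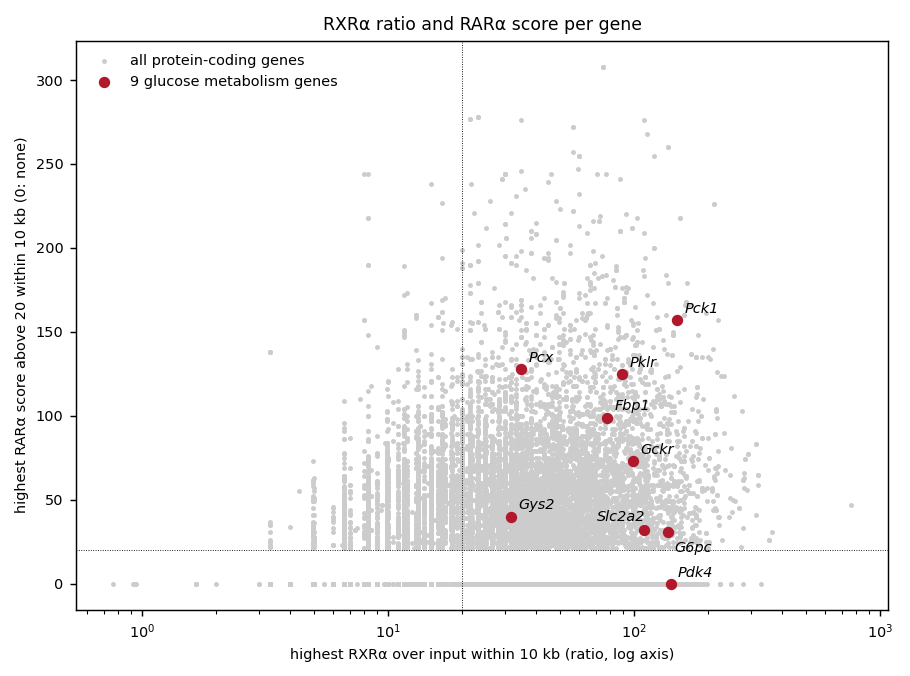
Highest RARα score of filtered peaks within 10 kb (y axis, 0 where there was none) against the highest ratio of RXRα over input within 10 kb (x axis, log scale) for all 22367 protein-coding genes (grey) and the 9 genes (red). Dotted lines mark a ratio of 20 and a score of 20; all 9 genes lie right of the ratio line, and Pdk4 has a score of 0.

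When reads were summed within 1 kb of the start, which does not depend on single bins, Pdk4 had the highest RXRα enrichment at 15.6 (95% interval 8.57 to 30.2), with 184 RXRα reads and 11.8 input reads, counted as the summed signal divided by the 5 bins of a read. G6pc followed at 13.7 (9.14 to 21.9), Pck1 at 10.9 (8.02 to 15.2) and Gckr at 9.71. Fbp1 had 7.13 (4.87 to 11.2), Gys2 6.06 (4.22 to 8.74) and Pklr 5.90 (3.54 to 9.98). The lowest were Pcx at 4.91 and Slc2a2 at 4.75 (3.30 to 6.87). The interval of each gene overlapped that of the next in this order, and differences between neighbours were not tested. The intervals of the 3 highest lay above that of Slc2a2. The median of all genes was 1.37. Over the annotated gene, Fbp1 came first at 4.71 (4.03 to 5.56), and G6pc and Slc2a2 followed at 3.96 and 3.93. Gckr was lowest at 1.07 (0.841 to 1.34), and the median of all genes was 0.839.

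**Figure D4:**
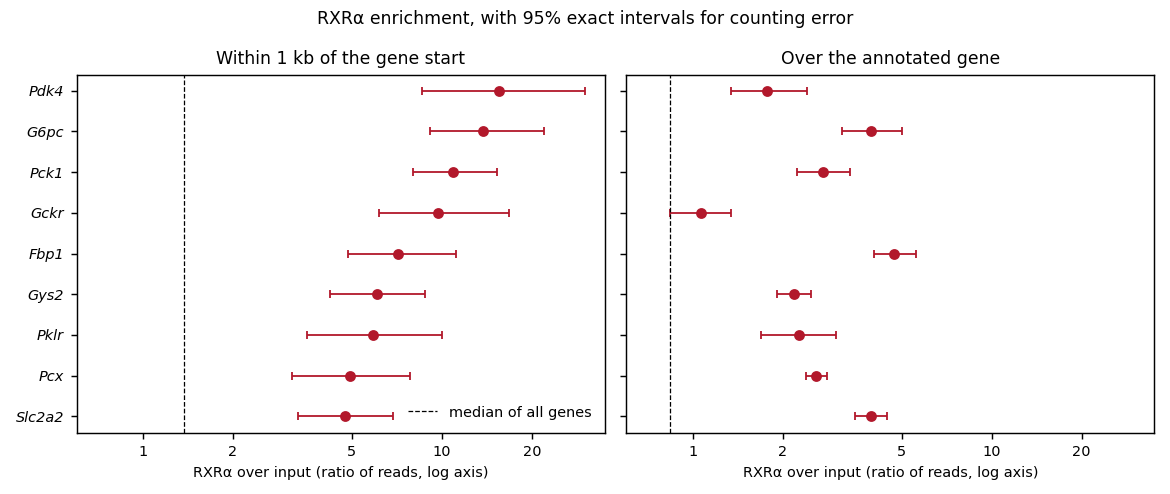
RXRα over input as a ratio of reads (x axis, log scale) within 1 kb of the gene start (left) and over the annotated gene (right) for the 9 genes, with bars for 95% exact intervals that cover counting error only and a dashed line at the median of all genes. At the start all 9 genes lie above the median of 1.37, from 4.75 at Slc2a2 to 15.6 at Pdk4, and over the gene Gckr is the lowest at 1.07.

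Some peaks of RXRα stayed below 20 times the local input, as at the starts of Slc2a2 and Gys2. When RXRα was set against the mean input alone, an alternative chosen after the data were seen, the 10 kb windows held 55 regions in place of 37, and 21 of them overlapped none of the 37. The strongest of these was at Pck1, 6148 bp upstream, with 153 RXRα reads over 11 input reads and a highest local ratio of 19.1. The next were the starts of Slc2a2 and Gys2. No such peak was added at Pcx, Pklr or Pdk4.

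Most of the gene starts had a low density of CpG dinucleotides. The ratio of observed to expected CpG within 500 bp on either side of the start had a median of 0.232, compared to 0.549 over all genes. It was at most 0.402 at 7 genes, while Pdk4 had 0.533, close to the median of all genes, and Pcx 0.825, at a percentile of 82.9. Filtered RARα peaks were more frequent at CpG-rich starts in general, since 83.3% of genes above the value of Pcx had a peak within 10 kb, compared to 45.8% of those at or below it.

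The hexamer repeats were searched on both strands within 100 bp on either side of the strongest RXRα bins, as copies of AGGTCA itself, of its variant GGGTCA, of its variant AGTTCA or of its variant GGTTCA in the same direction with 1 to 5 bases between them. None of the 9 strongest bins had such a repeat with exact hexamers, nor with 1 mismatch to a perfect AGGTCA pair. Exact repeats were also rare in general, at 2.98% of all RXRα regions and 0.286% of all gene starts. Among the 66 RXRα regions of the 9 genes over either window, 1 (1.52%) had an exact repeat, with 2 bases between the hexamers, in an intron of Pcx (AGTTCAgaAGGTCA, chr19:4567873-4567886, plus strand). With 2 mismatches allowed, also an alternative chosen later, 3 of the 9 had a repeat of any spacing, as did 28.5% of all RXRα regions and 7.69% of all gene starts. Across the same 66 regions, 8 (12.1%) had a DR1-like pair at that setting, compared to 5072 of all 42117 RXRα regions and 2.05% of all gene starts. The share at these genes was thus near that of RXRα regions in general. Apart from those printed, matches lay at Slc2a2 (AGGCCAaAGGTGA, chr3:28598673-28598685, minus strand, 1854 bp downstream), at Pck1 6742 bp downstream, and in introns of Pcx, where AGGTCAcAGGTCT (chr19:4534848-4534860) and AGGGCAaAGGTCA (chr19:4568901-4568913) on the plus strand each differed from the perfect pair at 1 position.

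To place the 9 genes in their pathway, 48 further genes of gluconeogenesis, glycolysis, glycogen metabolism and their control were counted in the same way. A filtered RARα peak lay within 10 kb of 43 of them (89.6%, compared to 52.2% of all genes). An RXRα region lay near 41 (85.4%, compared to 39.8%) and a co-localized RARα peak near 35 (72.9%, compared to 23.5%). The highest RXRα ratios were at Ppp1r3g (179) and Gbe1 (128), a glycogen-targeting phosphatase subunit and the glycogen branching enzyme, at Brp44l (143), a subunit of the mitochondrial pyruvate carrier, at Mlxipl (136), which encodes the glucose-responsive factor ChREBP, and at Sik1 (131), a kinase that restrains CREB signals. The combination of an RXRα region and no filtered RARα peak seen at Pdk4 was also found at Pck2, Pgk1, Pdha1 and Hnf4a. These were 8.33% of the list, near the 7.19% of all genes. Ppargc1a, the coactivator of fasting, had neither within 10 kb of its start.

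Family partners of the 9 genes, many of them used mainly in other tissues or compartments, were counted as well. Of 13 such genes, 4 (Pck2, G6pc3, Pdk1 and Pdk2) are also among the 48 pathway genes. A filtered RARα peak was found at 10 of the 13 and an RXRα region at 9, compared to 52.2% and 39.8% of all genes. A co-localized RARα peak was found at 2, G6pc3 and Slc2a3 (15.4%, compared to 23.5% of all genes). At Gys1, the glycogen synthase of muscle, the highest RXRα ratio was 8.30, and at Pkm2, the pyruvate kinase of most other tissues, it was 9.96. Slc2a5, the fructose transporter, had a ratio of 119 and no filtered RARα peak. The list is short, and at 10 times input 6 of the 13 had a co-localized RARα peak, compared to 38.9% of all genes.

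The tissue label was set against markers of liver cell types, although binding does not measure expression. All 5 hepatocyte markers had a filtered RARα peak, an RXRα region and a co-localized peak. Among all genes the shares were 52.2%, 39.8% and 23.5%. Of 3 markers each, cholangiocytes had 1 with a RARα peak, 1 with an RXRα region and 0 co-localized, and stellate cells 1, 0 and 0. Endothelial cells had 3, 2 and 0, and macrophages and other leukocytes 1, 1 and 1, in each case Cd68. Filtered RARα peaks covered 0% of the Cd68 gene itself. Its RXRα enrichment within 1 kb of the start was 1.22, compared to a median of 1.37 over all genes.

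**Figure D5:**
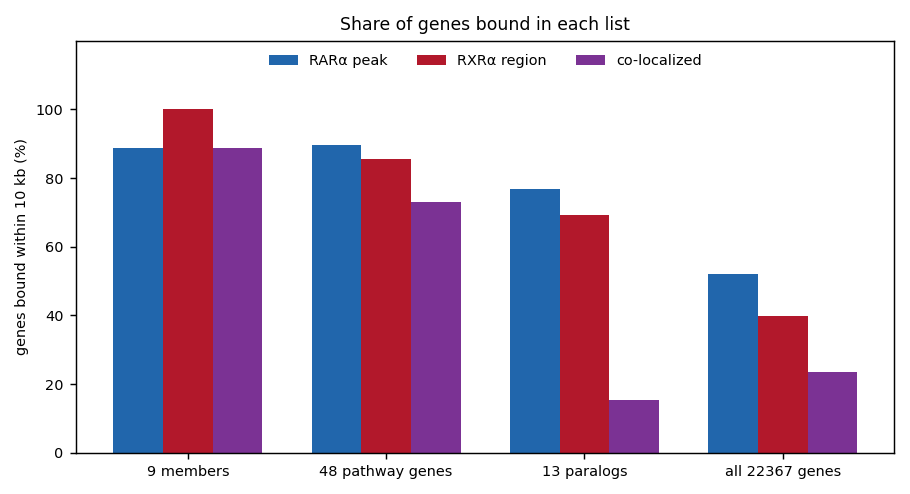
Share of genes (y axis, %) with a filtered RARα peak (blue), an RXRα region (red) and a co-localized RARα peak (purple) within 10 kb of the gene start, for the 9 genes, the 48 pathway genes, the 13 paralogs, 4 of which are also pathway genes, and all 22367 genes. Co-localized peaks were found at 88.9% of the 9 genes, 72.9% of pathway genes, 15.4% of paralogs and 23.5% of all genes.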

How the data were processed

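Livers were fixed, sonicated and precipitated with each antibody. The authors aligned reads with Bowtie and called RARα peaks with MACS, after base calling with CASAVA 1.4 per the submitters' processing notes. The deposited signal of RXRα and of input is whole-number coverage by extended reads in 32 bp bins, with 5 bins per read. The deposited RARα peaks carry a score and a false discovery rate in percent for each of 143280 positions, and the scale of the score is not given in the sources used here. The methods name mm10 for the alignment and the file headers mm9, and NCBI37/mm9 was used throughout.

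From these files, RXRα was scaled to input by 0.99994, bins at 20 times the larger of local and mean input (0.603 per bin) were joined within 200 bp, and RARα peaks with scores greater than 20 were kept. A peak counted for every gene whose start lay within 10 kb of its summit, and a region by its midpoint. Runs of abutting RARα peaks had gaps of at most 10 bp. Positions are 1-based and sequences come from the NCBI37 genome.

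All 9 genes are named, each with its highest RARα peak and RXRα region, and pathway genes where the ratios were highest or binding was absent. The members and lists were chosen with earlier results of these data known. With 1 library per antibody no p-values were computed. The calling of regions and overlaps was tested on simulated data. Python 3.11.15, numpy 2.4.6, pandas 2.3.3, scipy 1.17.1, pysam 0.24.0 and matplotlib 3.10.9 were used. Other thresholds, windows, overlaps and gene starts were tried. Gene expression was not analysed here. Some genes of the pathway list are counted but not reported here by name.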

Additional observations from a re-analysis of the deposited data

How the results depend on the processing

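Of 57 counts recomputed under another setting, 45 stayed within 1.5 times the count reported. At scores above 50 the members with a RARα peak within 10 kb fell to 5 and with a co-localized peak to 4, where the shares of all genes were 24.6% and 10.9%, and at scores above 100 both were 3. An RXRα threshold of 30 times input left 5 members co-localized. Over the annotated gene, scores above 50 left 4 with a RARα peak and 4 co-localized. For that threshold and for this window at scores above 50, the shares of all genes were not computed. Pathway genes with a co-localized peak fell to 23 at scores above 50. At that score, 3 of the 13 paralogs (23.1%, near the 24.6% of all genes) had a RARα peak and 0 a co-localized one. At 10 times input, 6 paralogs had a co-localized peak. Hexamer repeats at the strongest bins rose from 0 to 3 with 2 mismatches allowed. In each case the setting itself admits fewer or more peaks. The order of the strongest ratios depended on smoothing and on the input used: with both tracks averaged over 5 bins Pdk4 came first (125), Pck1 had 89.5 and G6pc 62.0, and over the mean input alone Pck1 had 307, G6pc 227, Pdk4 192 and Gys2 126. Input counts of 0 to 3 reads in the strongest bins limit these ratios. No paired analysis was possible because each antibody had 1 library.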

Other observations

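Some regulators of glucose metabolism had more binding sites when the start of any coding transcript was used in place of the 5′ end of the gene, an alternative chosen after the data were seen. Hnf4a, a master regulator of hepatocytes, went from 0 to 16 filtered RARα peaks, from 1 to 11 RXRα regions and from 0 to 8 co-localized peaks over 6 starts. Ppargc1a went from none to 2 RXRα regions and 2 co-localized peaks. With these starts, 45 of the 48 pathway genes had a RARα peak, 43 an RXRα region and 38 a co-localized peak. More starts widen the sequence searched at any gene, and the shares of all genes with these starts were not computed.

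Large shares of some transcription factor genes of the pathway list were also covered by RARα peaks. Such a share depends on gene length, and the length of runs of abutting peaks was not measured at these genes. Filtered RARα peaks covered 98.3% of Cebpb, 75.1% of Cebpa and 62.5% of Onecut1, which encode liver-enriched factors. Their CpG ratios were 1.01, 0.889 and 0.784, compared to 0.313 at Pck1. Also on the list, Gapdh had 42.8% of its length covered and Slc37a4, the glucose 6-phosphate transporter, 41.1%.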
